A study of Arabidopsis thaliana with 21 samples.

Results

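PDF1.2 (AT5G44420), PDF1.4 (AT1G19610) and PDF2.1 (AT2G02120) belong to the plant defensin family of Arabidopsis thaliana. They were chosen by their measured levels in all 7 groups of the series, as members of 1 family whose levels differed between groups in different directions. Their levels and differences are therefore given as descriptions, with no test. Each gene had 1 probe set, so they made up 3 of the 22810 probe sets on the arrays and 3 of the 13286 genes that could be named.

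Transcript levels were measured in the aerial parts of Col-0 plants kept on soil for 3 weeks at 22 °C with 12 h photoperiods. Plants of 2 groups were then held at 4 °C for 24 h: the triple mutant camta1/2/3 and the wild type (WT). The other 5 groups stayed at 22 °C: camta1/2/3, the double mutants camta2/3, camta1/3 and camta1/2, and WT. Each group had 3 arrays, which the labels call biological replicates. All mutants are in the Col-0 background, while the sources used here give neither their alleles nor the plants per sample.

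Plant defensins are small secreted peptides whose fold is held together by disulfide bonds between cysteines, and many of them inhibit the growth of fungi. PDF1.2 is widely used as a marker of the joint jasmonate and ethylene branch of plant defence, in which the transcription factors ERF1 and ORA59 activate it. Salicylic acid signalling is known to counteract that branch. The CAMTA genes encode calmodulin-binding transcription factors. CAMTA3 is known as a repressor of salicylic acid-based defence at warm temperature, a role that CAMTA1 and CAMTA2 share.

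Levels are the deposited log2 values, so a difference of 1 stands for a ratio of 2, and a level is never compared between genes. Over all arrays the values ran from 2.17 to 14.27. The leaf genes LHCB4.2, RCA and PRK had group means from 10.01 to 13.66. Of the root markers, EXP7, an expansin gene of root hairs, lay at 2.17 on every array, while PYK10 had group means from 6.40 to 8.83 and the jacalin lectin gene JAL23 from 3.74 to 6.53. The pollen-type gene AT5G45880 had group means from 3.19 to 3.48. The difference between the 3′ and 5′ actin control probe sets, which widens when RNA is degraded or its copies are short, averaged 3.11 ± 1.0 in camta1/2/3 and 2.00 ± 0.62 in WT at 4 °C. At 22 °C it averaged 2.90 ± 0.13 in camta1/2/3, 2.62 ± 0.16 in camta2/3, 2.48 ± 0.26 in camta1/3, 2.09 ± 0.05 in camta1/2 and 2.23 ± 0.21 in WT (SD, n = 3 each). It was 4.25 on replicate 2 of camta1/2/3 at 4 °C, and its part in the results was tested only as a covariate. Of 11 listed leaf genes, 3 had a probe set named here. All 3 leaf genes fell at 4 °C in both genotypes, by 0.64 to 2.17 (log2). Of all probe sets, 12.3% were lower at 4 °C in camta1/2/3 and 13.1% in WT. For PRK the call was lost in 5 of 13 alternatives in camta1/2/3 and 3 of 13 in WT, and for RCA in camta1/2/3 in 1 of 13. PYK10 fell at 4 °C in both genotypes, and JAL23 was lower in camta1/2/3 than in WT at both temperatures, the call at 4 °C being lost in 9 of 13 alternatives. JAL23 was also lower in camta2/3 (−2.50, adjusted p = 0.000112 in limma) and in camta1/3 (−2.05, adjusted p = 0.00267 in limma, lost on the 6 arrays alone at 0.215). The leaf gene LHCB4.2 was lower in camta1/2/3 than in WT at 22 °C (−0.49, adjusted p = 0.0468 in limma), a call lost in 8 of 13 alternatives. The part of these markers in the results was not tested.

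The 3 genes had 3 different patterns. PDF1.2 was lowest in camta1/2/3 at both temperatures. PDF1.4 was highest in camta1/2/3 at 22 °C, where it stood 8.86-fold above WT, and its mean was 4.91 in camta1/2/3 at 4 °C. PDF2.1 was low in all 5 groups at 22 °C and stood at 7.55 ± 0.18 in camta1/2/3 and 4.84 ± 0.56 in WT at 4 °C (SD, n = 3). In bulk tissue, fewer cells of a type and less RNA per cell cannot be told apart.

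**Figure D1:**
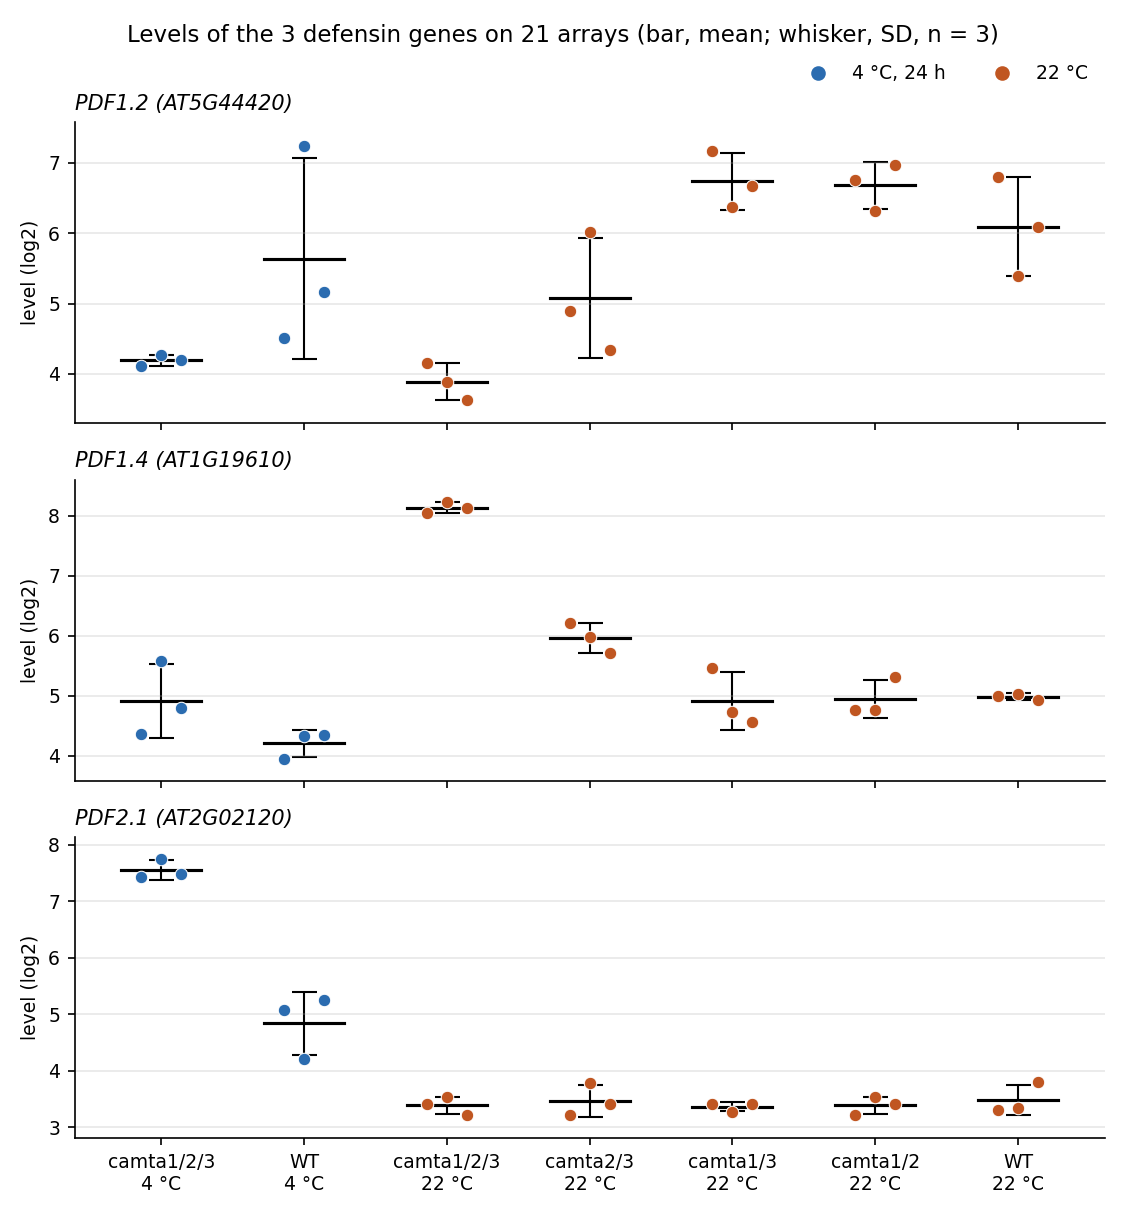
Levels (log2, vertical axis) of PDF1.2, PDF1.4 and PDF2.1 in the 7 groups (horizontal axis), with a point for each array in the order of replicates 1 to 3, a bar at the mean and whiskers of 1 SD (n = 3). PDF1.2 lies between 3.63 and 4.27 on the 6 arrays of camta1/2/3, PDF1.4 at 8.05 to 8.23 in camta1/2/3 at 22 °C alone, and PDF2.1 at 7.42 to 7.75 in camta1/2/3 at 4 °C alone.

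PDF1.2 had levels of 4.11, 4.27 and 4.2 in camta1/2/3 at 4 °C, against 4.51, 7.24 and 5.16 in WT at 4 °C. In camta1/2/3 at 22 °C it had 4.15, 3.89 and 3.63, in camta2/3 4.90, 6.01 and 4.34, in camta1/3 7.17, 6.37 and 6.67, in camta1/2 6.75, 6.31 and 6.97, and in WT 6.79, 5.39 and 6.09. All 6 arrays of the triple mutant thus lay below all arrays of the other 5 groups. The 3 arrays of WT at 4 °C were spread widely, with replicate 2 the highest value of this gene on any array.

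At 22 °C PDF1.2 averaged 3.89 ± 0.26 in camta1/2/3 and 6.09 ± 0.70 in WT (SD, n = 3), a difference of −2.20 ± 0.57 (log2 ± SE of the fit on all arrays) or 4.59-fold lower. The difference ranked 99 from the lowest among 22746 probe sets. Without detection calls, it is not known here whether PDF1.2 was above background on the camta1/2/3 arrays. Its fold is therefore a ratio of deposited levels only. At 4 °C the triple mutant averaged 4.19 ± 0.08 and WT 5.64 ± 1.43, a difference of −1.44 ± 0.57. That difference depended on WT replicate 2, and without it was −0.64. Without WT replicate 1 at 4 °C it was −2.01.

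Among the double mutants, camta2/3 averaged 5.08 ± 0.85, camta1/3 6.74 ± 0.40 and camta1/2 6.68 ± 0.34. The differences from WT were −1.01, 0.65 and 0.59, each ± 0.57. In the order of means, camta1/3 and camta1/2 stood first, then WT at 22 °C, WT at 4 °C, camta2/3 and camta1/2/3 at 4 °C and at 22 °C. Neighbours in this order had overlapping arrays, except camta2/3 and camta1/2/3 at 4 °C, which were 0.89 apart. Cold made little difference to the means of PDF1.2: 4 °C minus 22 °C was 0.30 ± 0.57 in camta1/2/3 and −0.45 ± 0.57 in WT, and arrays of both temperatures overlapped in each genotype. The WT value was −1.26 without replicate 2 at 4 °C and 0.11 without replicate 1 at 4 °C. In camta1/2/3 the levels were low at both temperatures, and it is not known here whether a fall could have been seen.

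PDF1.4 had levels of 4.37, 5.58 and 4.79 in camta1/2/3 at 4 °C, against 3.95, 4.33 and 4.34 in WT at 4 °C. At 22 °C it had 8.05, 8.23 and 8.12 in camta1/2/3, 6.21, 5.98 and 5.71 in camta2/3, 5.47, 4.73 and 4.56 in camta1/3, 4.77, 4.77 and 5.31 in camta1/2, and 5.0, 5.03 and 4.93 in WT. The triple mutant at 22 °C lay above every other array, and camta2/3 lay above every array of the 5 groups that remain. The arrays of camta1/3, camta1/2 and WT at 22 °C overlapped.

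The mean of PDF1.4 at 22 °C was 8.13 ± 0.09 in camta1/2/3 and 4.99 ± 0.05 in WT (SD, n = 3), a difference of 3.15 ± 0.27 (log2 ± SE), which ranked 86 from the highest among 22746 probe sets. For camta2/3 the mean was 5.97 ± 0.25 and the difference from WT 0.98 ± 0.27, or 1.97-fold. The means of camta1/3, 4.92 ± 0.48, and camta1/2, 4.95 ± 0.31, differed from WT by −0.07 and −0.04, each ± 0.27. The triple mutant thus stood 2.17 above camta2/3, the next group in the order of means, and camta2/3 stood 0.98 above WT, the group after it.

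After 24 h at 4 °C PDF1.4 averaged 4.91 ± 0.61 in camta1/2/3, against 8.13 ± 0.09 in the same mutant at 22 °C, a difference of −3.22 ± 0.27 or 9.32-fold lower, that ranked 19 from the lowest. In WT the means were 4.21 ± 0.22 at 4 °C and 4.99 ± 0.05 at 22 °C, a difference of −0.78 ± 0.27 or 1.72-fold lower. The response to cold of the triple mutant minus that of WT, called the interaction below, was −2.44 ± 0.39 and ranked 10 from the lowest. In WT at 4 °C the arrays were low, at 3.95 to 4.34, and the values came without detection calls. Whether a larger fall in WT could have been seen is not known here, and the part of background in this interaction was not tested. Between the genotypes at 4 °C the difference was 0.71 ± 0.27. It was 0.37 without replicate 2 of camta1/2/3, the array with the widest actin difference, and 0.13 with the actin difference as a covariate.

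PDF2.1 had levels of 7.42, 7.75 and 7.48 in camta1/2/3 at 4 °C, against 5.07, 4.21 and 5.25 in WT at 4 °C. The 15 arrays at 22 °C lay between 3.22 and 3.80: 3.42, 3.53 and 3.22 in camta1/2/3, 3.22, 3.78 and 3.42 in camta2/3, 3.42, 3.27 and 3.42 in camta1/3, 3.22, 3.53 and 3.42 in camta1/2, and 3.31, 3.35 and 3.80 in WT. All 3 arrays of the triple mutant at 4 °C lay above all 3 of WT at 4 °C, which in turn lay above every array at 22 °C. The same value recurred at 22 °C, with 5 arrays at 3.42 and 3 at 3.22. Since the values came without detection calls, it is not known here whether PDF2.1 was above background at 22 °C, and its folds against that temperature are ratios of deposited levels only.

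In camta1/2/3 PDF2.1 averaged 7.55 ± 0.18 at 4 °C and 3.39 ± 0.16 at 22 °C (SD, n = 3), a difference of 4.16 ± 0.22 (log2 ± SE), or 17.9-fold, which ranked 30 from the highest. In WT it averaged 4.84 ± 0.56 at 4 °C and 3.49 ± 0.27 at 22 °C, a difference of 1.36 ± 0.22 or 2.56-fold. The interaction was 2.80 ± 0.31 and ranked 12 from the highest. At 4 °C the triple mutant stood 2.71 ± 0.22 above WT, or 6.53-fold, a difference that does not rest on the low levels at 22 °C. The WT level at 4 °C was itself low, with 1 array at 4.21. How far it stood above background is not known here. The 4 mutants differed from WT at 22 °C by −0.12 to −0.01, each ± 0.22, less than the spread of the arrays, and leaving out 1 array turned the sign of each.

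**Figure D2:**
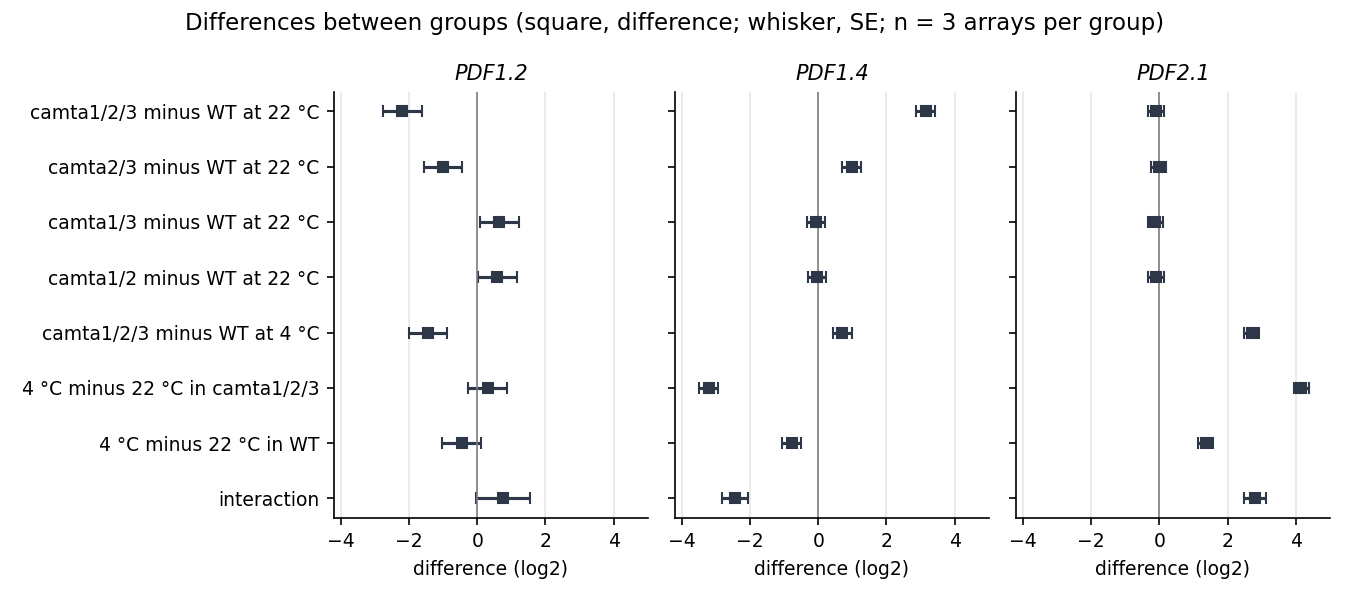
Differences between groups (log2, horizontal axis; square, difference; whisker, SE of the fit on 21 arrays) for PDF1.2, PDF1.4 and PDF2.1 in 8 comparisons (vertical axis). The interaction is the response to 4 °C in camta1/2/3 minus that in WT. PDF1.2 is at −2.20 and PDF1.4 at 3.15 in camta1/2/3 minus WT at 22 °C, and in the interaction PDF1.4 is at −2.44 and PDF2.1 at 2.80.

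Both genes that differed most between camta1/2/3 and WT at 22 °C had camta2/3 on the same side of WT as the triple mutant. For PDF1.2 these differences were −2.20 in camta1/2/3 and −1.01 in camta2/3, and for PDF1.4 they were 3.15 and 0.98. Both differences of a gene use the same 3 WT arrays. In camta2/3 the arrays of PDF1.2 overlapped those of WT, and those of PDF1.4 did not. In camta1/3 and camta1/2, which keep CAMTA2 or CAMTA3, PDF1.4 lay at 4.56 to 5.47 on each array and PDF1.2 at 6.31 to 7.17.

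The other members of the family were then compared, and these were tested. Of 93 defensin and defensin-like genes listed, 13 had a probe set named here, and 10 of them are other than the 3 genes above. Here rose, fell, higher and lower mean an adjusted p under 0.05 in limma over all 22746 probe sets. PDF2.2 and PDF2.3 rose at 4 °C in both genotypes, and PDF2.3 was lower in camta1/2/3 than in WT at both temperatures. In TAIR10.1 PDF2.2, PDF2.1, PDF2.3 and PDF2.6 lie close together on chromosome 2, with PDF2.3 the next gene after PDF2.1, PDF2.2 3 places before it and PDF2.6 4 places after it.

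PDF2.2 (AT2G02100, also LCR69) had levels of 11.97, 12.05 and 11.89 in camta1/2/3 at 4 °C, against 10.21, 9.54 and 9.63 in camta1/2/3 at 22 °C. In WT it had 12.12, 12.61 and 12.17 at 4 °C, against 10.27, 9.76 and 9.17 at 22 °C. It rose by 2.18 ± 0.29 in camta1/2/3 (adjusted p = 5.45e-05 in limma, n = 3) and by 2.57 ± 0.29 in WT (adjusted p = 9.57e-06 in limma, n = 3). Its interaction, −0.39 ± 0.40, did not pass (adjusted p = 0.748 in limma), and neither did any of the 4 mutants against WT at 22 °C, where its group means lay between 9.51 and 9.80.

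PDF2.3 (AT2G02130, also LCR68) had levels of 9.32, 9.21 and 9.15 in camta1/2/3 at 4 °C, against 10.60, 10.58 and 10.10 in WT at 4 °C. At 22 °C it had 8.35, 8.02 and 8.41 in camta1/2/3, against 9.57, 9.66 and 9.91 in WT. The groups did not overlap at either temperature. It was lower in camta1/2/3 by 1.2 at 4 °C (log2 difference −1.2 ± 0.15, adjusted p = 4.84e-05 in limma) and by 1.45 at 22 °C (−1.45 ± 0.15, adjusted p = 9.12e-06 in limma). It was also lower in camta2/3, at 8.64 ± 0.26 against 9.71 ± 0.18 in WT (−1.07 ± 0.15, adjusted p = 0.000437 in limma). Arrays of camta1/3 and camta1/2 also lay below those of WT, by −0.35 and −0.28 in the mean, without passing (adjusted p = 0.366 and 0.733 in limma). It rose at 4 °C by 0.97 ± 0.15 in camta1/2/3 and by 0.71 ± 0.15 in WT (adjusted p = 0.000285 and 0.00299 in limma). With only the 6 arrays of WT in the fit, the call in WT was lost (adjusted p = 0.0735).

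PDF1.2b (AT2G26020), a close copy of PDF1.2, is read by a probe set whose name carries the maker's mark for probes that can bind related transcripts, so its values may hold signal of PDF1.2 and other copies. It averaged 6.38 ± 0.86 in camta1/2/3 and 6.85 ± 0.74 in WT at 4 °C. At 22 °C it averaged 6.20 ± 0.77 in camta1/2/3, 6.83 ± 0.50 in camta2/3, 7.80 ± 0.25 in camta1/3, 7.34 ± 0.28 in camta1/2 and 6.70 ± 0.56 in WT (SD, n = 3). It passed in none of the 8 comparisons, and its difference between camta1/2/3 and WT at 22 °C was −0.50 (adjusted p = 0.559 in limma). As for PDF1.2, its highest means were those of camta1/3 and camta1/2.

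**Figure D3:**
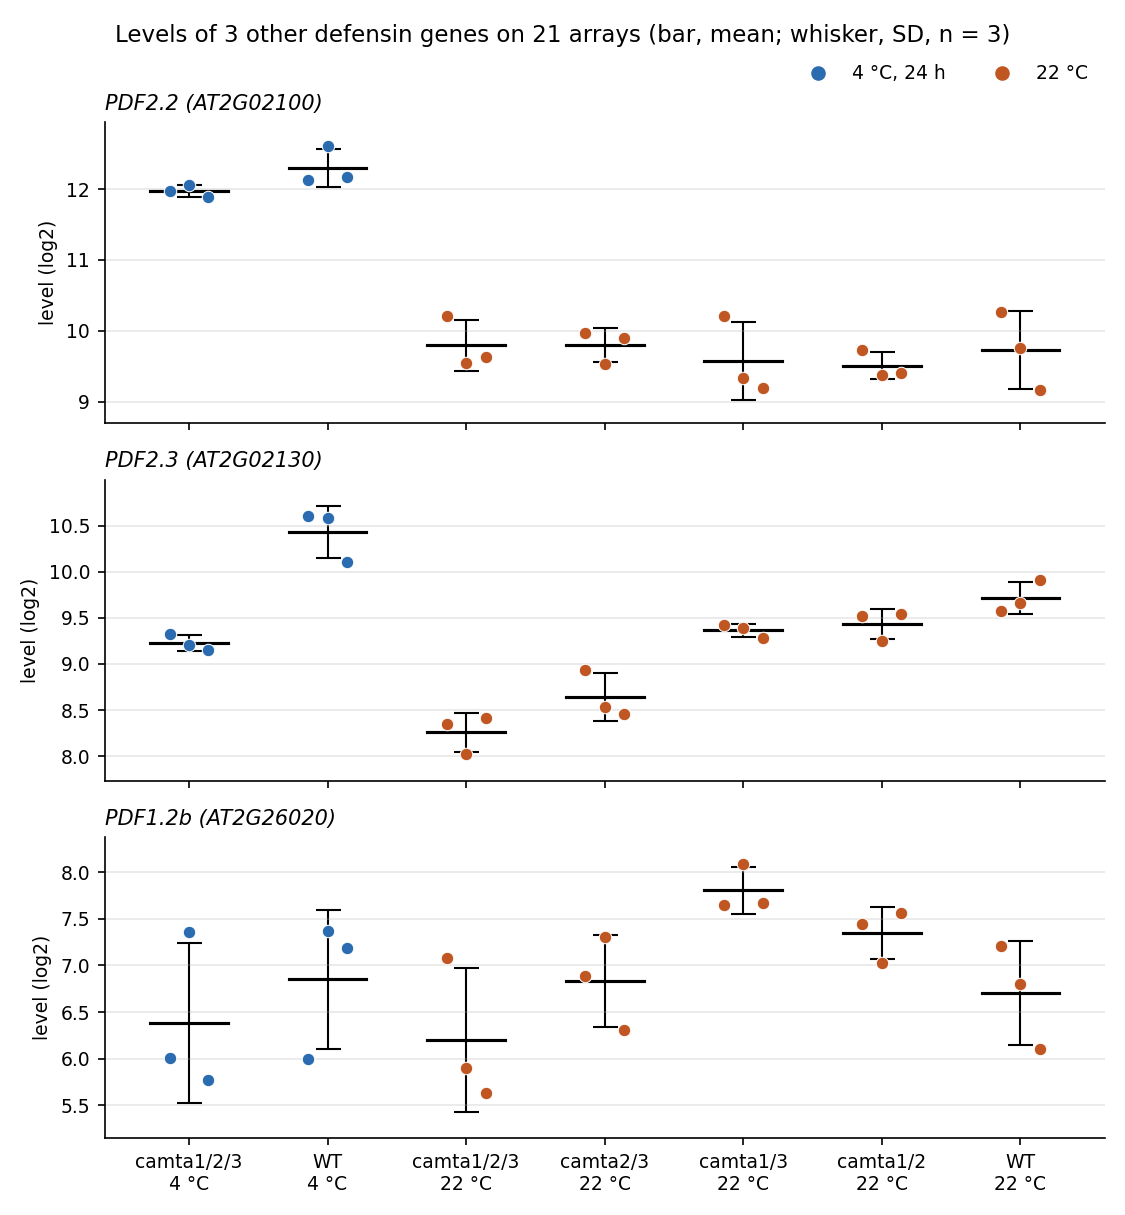
Levels (log2, vertical axis) of PDF2.2, PDF2.3 and PDF1.2b in the 7 groups (horizontal axis), with a point for each array, a bar at the mean and whiskers of 1 SD (n = 3). PDF2.2 lies at 11.89 to 12.61 on the arrays at 4 °C and at 9.17 to 10.27 on those at 22 °C, and PDF2.3 is lower in camta1/2/3 than in WT at both temperatures.

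The remaining 7 family genes stayed at low, recurring values and passed in no comparison. PDF1.1 (LCR67) was at 3.60 on 14 of 21 arrays, PDF2.4 (LCR66) at 4.05 on 18, PDF2.5 at 2.17 on 18, PDF2.6 (LCR72) at 2.17 on 19, LCR80 at 2.24 on 11, LCR59 at 2.52 on 15 and LCR24 at 2.17 on 20. PDF2.6, near PDF2.1 on the chromosome, reached 2.61 at most.

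Counts for the 10 other family genes are set here beside the share of all probe sets called in the same direction. For camta1/2/3 minus WT at 22 °C 0 were higher and 1 was lower, against 11.1% of all probe sets higher and 12.4% lower. For camta1/2/3 minus WT at 4 °C 0 were higher and 1 was lower, against 10.5% and 10.6%. For camta2/3 minus WT 0 were higher and 1 was lower, against 4.61% and 5.51%. In camta1/2/3 2 rose and 0 fell at 4 °C, against 9.96% and 12.3%, and in WT 2 rose and 0 fell, against 9.93% and 13.1%. By limma 0 passed for camta1/3 minus WT, against 1.67% of all probe sets higher and 0.541% lower. For camta1/2 minus WT 0 passed, against 0.101% and 0.0615%, and for the interaction 0, against 1.12% and 0.849%. At an unadjusted p under 0.05 in limma the counts in these comparisons were 2, 0 and 0. The shares are for adjusted p, and none is given here for the unadjusted threshold. With so few genes, 1 or 2 calls are near these shares. The median difference of the 10 genes was 0.02 for cold in camta1/2/3 and 0.18 for cold in WT, and 0.03 for camta1/2/3 minus WT at 22 °C, against medians of 0.00 over all probe sets. Most of the 10 genes stayed at low, recurring values, so these medians mainly describe such values and not PDF2.2 or PDF2.3.

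**Figure D4:**
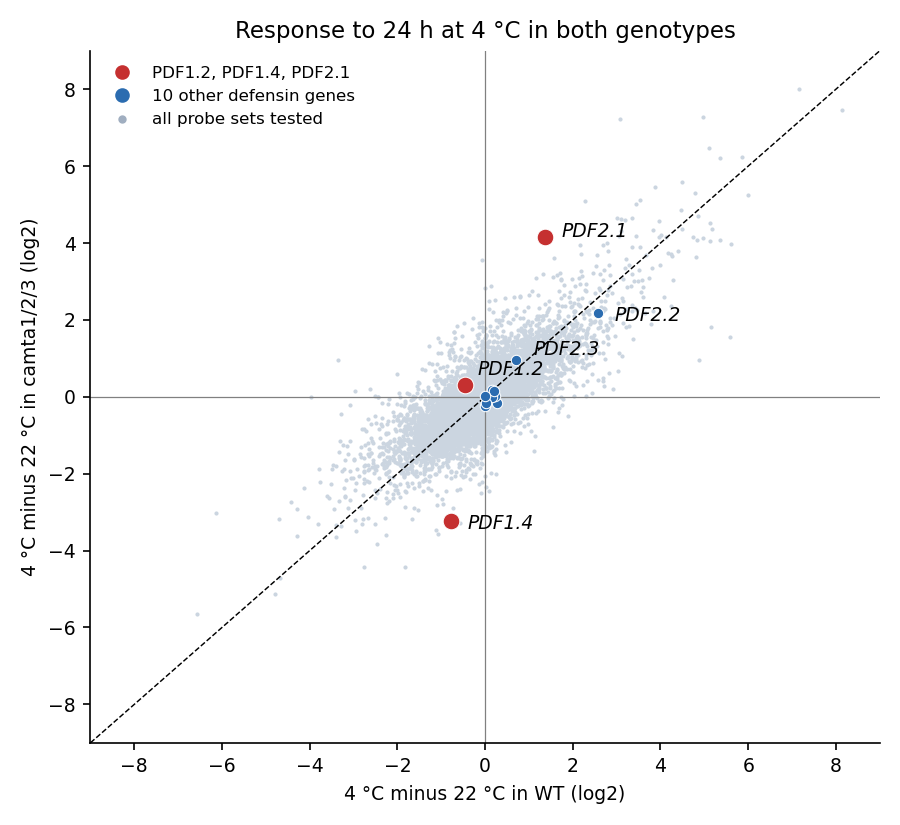
Response to 24 h at 4 °C (4 °C minus 22 °C, log2) in camta1/2/3 (vertical axis) and in WT (horizontal axis). Grey points are all 22746 probe sets tested, blue points the 10 other defensin genes, red points PDF1.2, PDF1.4 and PDF2.1, and the dashed line marks equal responses; both axes also hold the noise of 3 arrays per group. PDF2.1 lies above the line at 4.16 and 1.36, PDF1.4 below it at −3.22 and −0.78, and PDF2.2 near it at 2.18 and 2.57.

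Genes of the pathways that act on PDF1.2 were taken from lists of jasmonate and ethylene genes. Of 84 entries 11 had a probe set named here, and none of the ethylene response factors, ERF1 and ORA59 included, or of the wound-branch targets was among them. At 22 °C 3 of the 11 genes were higher in camta1/2/3 than in WT and 3 were lower, against 11.1% and 12.4% of all probe sets. At 4 °C 2 were higher and 2 lower, against 10.5% and 10.6%. The median difference of the 11 genes was −0.54 in camta1/2/3 at 22 °C and −0.55 at 4 °C, and −0.42 in camta2/3, −0.25 in camta1/3 and −0.41 in camta1/2, against 0.00 over all probe sets. The 4 medians at 22 °C share the same 3 WT arrays, and the one in camta1/2 stands beside 0 called genes. In camta2/3 0 were higher and 3 lower, against 4.61% and 5.51% of all probe sets, and in camta1/3 0 and 1, against 1.67% and 0.541%. In camta1/2 0 were higher and 0 lower by limma, against 0.101% and 0.0615%. At an unadjusted p under 0.05 in limma there were 2, a threshold for which no share of all probe sets is given here. For 4 °C against 22 °C, 0 passed in camta1/2/3 by limma, against 9.96% of all probe sets higher and 12.3% lower. At the unadjusted threshold there were 2, again with no share given. In WT 1 rose and 2 fell, against 9.93% and 13.1%. For the interaction 1 gene, THI2.1, was higher and 0 were lower, against 1.12% and 0.849%.

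Of the synthesis genes, JMT (AT1G19640), which encodes the enzyme that methylates jasmonate, was lower in camta1/2/3 at both temperatures. It had levels of 3.24, 3.65 and 3.24 in camta1/2/3 at 4 °C, against 5.98, 6.09 and 5.26 in WT, a difference of −2.40 ± 0.31 (adjusted p = 5.15e-05 in limma). At 22 °C it had 3.24, 3.38 and 3.34 in camta1/2/3, against 4.59, 4.99 and 4.33 in WT, a difference of −1.32 ± 0.31 (adjusted p = 0.00533 in limma). In WT it rose by 1.14 ± 0.31 at 4 °C (adjusted p = 0.0138 in limma), a call lost without WT replicate 3 at 22 °C, without WT replicate 1 or 2 at 4 °C and on the 6 WT arrays alone (highest adjusted p 0.0826). It was also lower in camta2/3, by −1.16 ± 0.31 (adjusted p = 0.0255 in limma), a call lost on the 6 arrays alone and without replicate 1 or 2 of either group (highest adjusted p 0.107). OPCL1, which activates the jasmonate precursor, passed in no comparison and had group means of 6.42 to 7.53.

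In perception and signalling, MYC3, a transcription factor that the JAZ repressors bind, averaged 7.31 ± 0.27 in camta1/2/3 and 6.75 ± 0.34 in WT at 22 °C, a call (adjusted p = 0.0471 in limma) that was lost in 10 of 13 alternatives (highest adjusted p 0.213). MYC4 passed in no comparison, with group means of 5.07 to 5.75. EIN3, the transcription factor of ethylene signalling that acts upstream of ERF1, was higher in camta1/2/3. It had 8.57, 8.87 and 8.24 in camta1/2/3 at 4 °C, against 7.27, 7.58 and 7.72 in WT (difference 1.04 ± 0.18, adjusted p = 0.000558 in limma), a call lost on the 6 arrays alone (adjusted p = 0.0557). At 22 °C it had 8.81, 8.43 and 8.78 in camta1/2/3, against 7.93, 7.92 and 7.60 in WT (0.86 ± 0.18, adjusted p = 0.00207 in limma). In camta2/3, camta1/3 and camta1/2 it differed from WT by 0.32, 0.40 and 0.18, without passing (adjusted p = 0.331, 0.375 and 0.964 in limma).

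The 3 genes of jasmonate turnover, AT5G05600, JRG21 and AT2G38240, encode oxygenases that hydroxylate jasmonate, and passed in no comparison. Their spread within groups was wide: AT2G38240 had 8.42, 6.25 and 4.60 in WT at 22 °C, and its group SDs reached 1.94.

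Of the defence targets, OSM34, an osmotin gene, stood higher in camta1/2/3. It had 7.90, 7.25 and 6.56 in camta1/2/3 at 4 °C, against 3.08, 4.35 and 3.17 in WT (3.70 ± 0.68, 13.0-fold, adjusted p = 0.00111 in limma). Whether OSM34 was above background in WT at 4 °C is not known here, so this fold is a ratio of deposited levels only. At 22 °C it had 8.07, 8.37 and 8.12 in camta1/2/3, against 5.79, 3.56 and 6.39 in WT (2.94 ± 0.68, 7.67-fold, adjusted p = 0.00498 in limma), a call lost on the 6 arrays alone (adjusted p = 0.088). Like PDF1.4 and unlike PDF1.2, it was thus above WT in the triple mutant at 22 °C. Its differences from WT in camta2/3, camta1/3 and camta1/2 were 1.31, 1.53 and −0.88, without passing (adjusted p = 0.291, 0.382 and 0.884 in limma).

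The thionin gene THI2.2 (AT5G36910) was lower in camta1/2/3. It had 4.56, 4.69 and 4.78 in camta1/2/3 at 22 °C, against 7.55, 7.64 and 8.48 in WT (−3.21 ± 0.35, adjusted p = 1.2e-05 in limma), and 4.56, 5.18 and 5.08 in camta1/2/3 at 4 °C, against 6.65, 6.80 and 6.29 in WT (−1.64 ± 0.35, adjusted p = 0.00329 in limma). In camta2/3 it averaged 5.95 ± 0.11, or −1.94 ± 0.35 from WT (adjusted p = 0.00216 in limma). In WT it fell by 1.31 at 4 °C (adjusted p = 0.0127 in limma), a call lost on the 6 WT arrays alone and without replicate 3 at either temperature (highest adjusted p 0.0702). THI2.1 was at 3.43 on 14 of 21 arrays, and its calls rest on WT at 22 °C, at 3.65, 3.83 and 4.04. It was lower than that in camta1/2/3 (−0.41, adjusted p = 0.0066 in limma), camta2/3 (−0.41, 0.0152) and camta1/3 (−0.51, 0.0148), and in WT at 4 °C (−0.39, 0.00896). Each of these 4 calls was lost on the 6 arrays alone, and those in camta2/3 and of cold also without WT replicate 3 at 22 °C. The call in camta1/3 was lost without WT replicate 2 or 3 or camta1/3 replicate 2 as well (highest adjusted p 0.333).

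On the salicylic acid side 1 of 13 listed genes had a probe set named here. GRX480, a glutaredoxin gene that is induced by salicylic acid and whose overexpression is known to repress PDF1.2, had 7.85, 8.13 and 7.96 in camta1/2/3 at 4 °C, against 5.83, 6.62 and 6.36 in WT (1.71 ± 0.35, adjusted p = 0.00245 in limma). At 22 °C it had 7.82, 7.27 and 7.49 in camta1/2/3, against 6.31, 5.46 and 5.17 in WT (1.88 ± 0.35, adjusted p = 0.001 in limma). Neither pair of groups overlapped, and the call at 4 °C was lost with the actin difference as a covariate (adjusted p = 0.0567). GRX480 also stood above WT in camta2/3, by 1.12 and with no overlap of arrays, and in camta1/3, by 0.90. Neither passed (adjusted p = 0.0564 and 0.276 in limma), nor did the difference of 0.28 in camta1/2.

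Of 13 listed genes of other small cysteine-rich peptides, 3 were measured, and 2 of them were lower in camta1/2/3 at both temperatures and in camta2/3. Of all probe sets 12.4% were lower in camta1/2/3 at 22 °C, 10.6% at 4 °C and 5.51% in camta2/3. The thionin family gene AT1G66100 averaged 3.76 ± 0.72 in camta1/2/3 and 8.76 ± 0.40 in WT at 4 °C, and 5.05 ± 1.68 in camta1/2/3 and 10.67 ± 0.65 in WT at 22 °C (adjusted p = 0.000141 and 4.8e-05 in limma, n = 3). In camta2/3 it averaged 7.73 ± 1.02 (adjusted p = 0.0164 in limma), a call lost on the 6 arrays alone, without replicate 2 or 3 of camta2/3 and without WT replicate 1 (highest adjusted p 0.0839). AT1G22690, of the GASA family of gibberellin-regulated peptides, averaged 5.76 ± 0.24 in camta1/2/3 and 7.84 ± 0.40 in WT at 4 °C, and 6.57 ± 0.40 in camta1/2/3 and 8.52 ± 0.22 in WT at 22 °C (adjusted p = 6.23e-05 and 9.87e-05 in limma, n = 3). In camta2/3 it averaged 7.36 ± 0.24 (adjusted p = 0.013 in limma), lost without camta2/3 replicate 3 or WT replicate 2 or 3 (highest adjusted p 0.0589). Its fall at 4 °C in camta1/2/3 (adjusted p = 0.0443 in limma) was lost in 7 of 13 alternatives, among them 5 of 6 fits without 1 array (highest adjusted p 0.174). AT2G15010 was at 3.1 on 15 of 21 arrays and passed in no comparison.

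**Figure D5:**
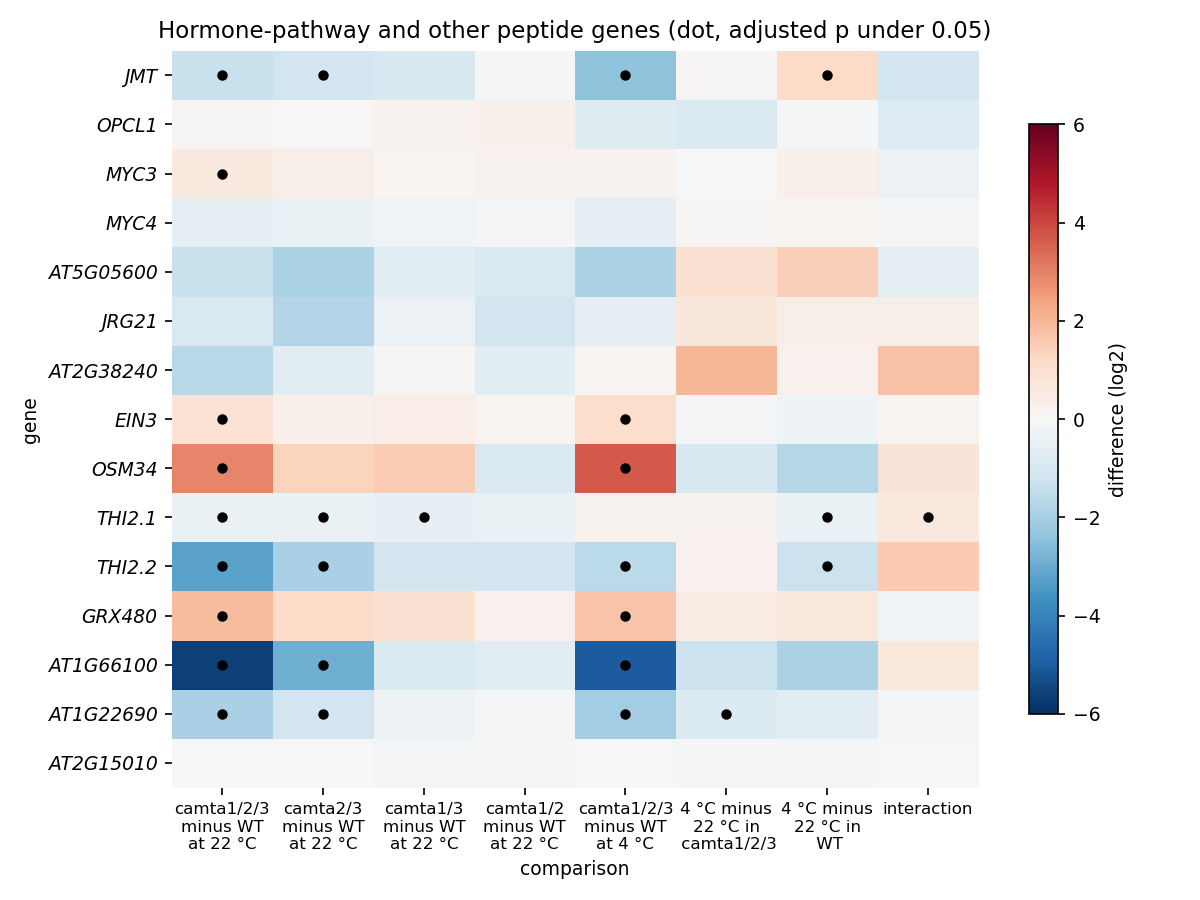
Differences (log2, colour, red higher and blue lower) of 15 hormone-pathway and other peptide genes (vertical axis) in 8 comparisons (horizontal axis), with a dot where the adjusted p in limma was under 0.05. OSM34 is at 2.94 and AT1G66100 at −5.62 in camta1/2/3 minus WT at 22 °C.

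For each of the 3 genes, the 5 genes with the highest Pearson correlation over the 21 arrays were named, as a description. The arrays share the 7 groups, so a few differences between groups carry these values. PDF2.1 was followed most closely by AT5G28430 (r = 0.958) and AT4G24200 (0.956), then AT5G66650 (0.942), the xyloglucan endotransglucosylase gene XTH20 (0.94) and AT1G04810 (0.938). XTH20 averaged 5.61 in camta1/2/3 and 4.02 in WT at 4 °C, and 3.67 to 3.79 in the groups at 22 °C. AT4G24200 averaged 7.62 in camta1/2/3 and 6.67 in WT at 4 °C, and 6.15 to 6.35 at 22 °C. AT5G66650 was low throughout, with group means of 2.82 to 3.22.

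PDF1.4 was followed by AT2G39410 (r = 0.915), ATIM (AT5G52910, 0.913), AT4G34600 (0.912), AT3G10120 (0.909) and AT5G63260 (0.902). Some of these were low, with group means of 2.36 to 4.29 for AT2G39410, 2.32 to 3.16 for AT4G34600 and 2.73 to 4.64 for AT3G10120. ATIM averaged 4.99 in camta1/2/3 and 4.86 in WT at 4 °C. At 22 °C it averaged 7.0 in camta1/2/3, 5.28 in camta2/3, 5.04 in camta1/3, 4.97 in camta1/2 and 5.09 in WT. PDF1.2 had less close companions: AT4G24350 (r = 0.83), AT2G40280 (0.828), AT1G18060 (0.825), AT4G36660 (0.824) and iqd21 (AT3G49260, 0.823), of a family of calmodulin-binding proteins. AT4G24350 averaged 3.88 in camta1/2/3 and 5.71 in WT at 4 °C. At 22 °C it averaged 4.18 in camta1/2/3, 5.75 in camta2/3, 6.95 in camta1/3, 7.20 in camta1/2 and 7.44 in WT.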

How the data were processed

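RNA of 21 samples was amplified, labelled with biotin and hybridized to arrays, per the labels' protocols. The log2 values, as deposited by the authors, name GCRMA and limma as tools in the submitters' processing notes, with no version, and were used unchanged. Of 22810 probe sets, 64 controls were left out and 22746 tested, with no filter. The table of probe sets and genes named 13436 through RefSeq (TAIR10.1); 8730 were not named, so a listed gene without a named probe set was not analysed here. The letters PDF also matched 2 peptide deformylase genes, which were left out. Sequences of probes, promoters and proteins were not used here.

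In limma 3.58.1 under R 4.3.3, lmFit and eBayes estimated the 7 group means from the 21 arrays together, with 14 residual and 0.954 prior degrees of freedom. In each of 8 comparisons p-values were two-sided and adjusted by the Benjamini-Hochberg method over all probe sets, with a call under 0.05. The 3 genes, the gene lists and the tests were chosen with earlier results of these data known, so no list is independent support. The genes named were the 3 defensins, all measured members of the family, up to 4 called members per list and comparison, up to 2 of the highest members of a list without calls, and the 5 most correlated genes for each of the 3. A gene with several probe sets was given by the one with the highest mean.

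No 2 arrays held identical values. Same-numbered arrays deviated together (every correlation over 0.1) in 1 of 7 comparisons, camta2/3 with WT, where they were 0.327, 0.125 and 0.123; this pairing comes from the data, not the labels. Other settings tried were a replicate block, a filter on a group mean of 4, centring each array, quantile normalization, a trended variance, only the arrays compared, leaving out each array and, added after the data were seen, the actin difference as a covariate. The fit was tested on simulated data in which the deviations of each probe set were shuffled over the arrays. Deviations shared by same-numbered arrays were thus not part of that test. With 3 arrays per group, the number of arrays limits precision.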

Additional observations from a re-analysis of the deposited data

Results flagged for a closer look

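Among the listed genes outside the 3 defensins, 2 passed the interaction test, both with a more positive response to 4 °C in camta1/2/3 than in WT. Over all 22746 probe sets, 254 (1.12%) were higher and 193 (0.849%) lower in this test. THI2.1 had an interaction of 0.62 (adjusted p = 0.032 in limma), a call lost in 15 of 18 alternatives (highest adjusted p 0.139). It averaged 3.66 ± 0.20 in camta1/2/3 and 3.45 ± 0.03 in WT at 4 °C, and 3.43 ± 0.00 in camta1/2/3 and 3.84 ± 0.20 in WT at 22 °C. JAL23, listed as a root marker, had an interaction of 1.92 (adjusted p = 0.0267 in limma), lost in 5 of 19 alternatives (highest adjusted p 0.167). It averaged 3.74 ± 0.37 in camta1/2/3 and 4.60 ± 0.25 in WT at 4 °C, and 3.74 ± 0.41 in camta1/2/3 and 6.53 ± 0.72 in WT at 22 °C. In camta1/2/3 its arrays were low at both temperatures, at 3.31 to 3.95 at 4 °C and 3.27 to 4.04 at 22 °C. The part of background in this interaction was not tested.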

How the results depend on the processing

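Using only the arrays compared in place of all 21 gave fewer calls in every comparison. Over all probe sets they were 3252 for camta1/2/3 minus WT at 22 °C (5342 on all arrays), 2014 at 4 °C (4800), 1262 for camta2/3 (2301), 1 for camta1/3 (502), 0 for camta1/2 (37), 2447 for cold in camta1/2/3 (5053), 3131 for cold in WT (5250) and 188 for the interaction (447). Among the 12 jasmonate, ethylene and salicylic acid genes, called pathway genes here, they were 4 for camta1/2/3 minus WT at 22 °C (7 on all arrays), 1 for camta2/3 (3), 0 for camta1/3 (1), 0 for cold in WT (3) and 0 for the interaction (1), and among the other defensin genes 1 for cold in WT (2). For camta1/2 the calls over all probe sets were 68 after quantile normalization, 56 after centring and 147 with the filter. The actin covariate, chosen after seeing the data, gave 2692 calls for camta1/2/3 minus WT at 4 °C, and moved the difference of PDF1.4 to 2.794 for camta1/2/3 at 22 °C, 0.775 for camta2/3 and 0.127 for camta1/2/3 at 4 °C. The 1 pathway call for the interaction, THI2.1, became 0 after quantile normalization, centring, the replicate block and the actin covariate. The filter left this gene out, so it was not tested there. Cold in camta1/2/3 had 1 pathway call with the filter or the actin covariate (0 without). Leaving out 1 array gave ranges of 7 to 279 calls for camta1/2, 169 to 718 for camta1/3, 1485 to 2314 for camta2/3 and 275 to 555 for the interaction over all probe sets. The arrays that moved these counts most were WT replicates 1 and 2 at 22 °C and camta1/2 replicates 2 and 3 for camta1/2, WT and camta1/3 replicates 2 and 3 for camta1/3, WT replicate 3 at 22 °C for camta2/3 and WT replicate 2 at 22 °C for the interaction. Among pathway genes the ranges were 0 to 1 for camta1/2, 0 to 2 for camta1/3, 0 to 4 for cold in WT, 0 to 1 for cold in camta1/2/3 and 0 to 1 for the interaction. The interaction of PDF1.4 ranged from −2.773 to −2.168. The cause of these shifts was not tested.

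Of 49 calls of single genes, 26 were kept under every alternative and 23 were lost under at least 1. Of the genes named, the replicate block ended the calls of MYC3 and THI2.1 (interaction), and that of JAL23 for camta1/2/3 minus WT at 4 °C; it ended none for camta2/3, the comparison in which the numbers paired the arrays. Of 21 arrays, 16 had their closest residuals in arrays of their own number. Shared deviations of same-numbered arrays were thus not confined to camta2/3 with WT, and the main fit had no replicate block. The values have no detection calls, so differences among levels near the recurring low values are limited by background.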
